A study of Mus musculus with 2 samples.

Results

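TNF ligands and TNF receptors form the start of one of the main inflammatory circuits of macrophages, and 10 genes of that circuit were followed here in nuclear RNA. They were taken by name: the ligand genes Tnf, Lta, Ltb, Tnfsf9 and Tnfsf10, the receptor genes Tnfrsf1a and Tnfrsf1b, the protease gene Adam17, and the adaptor genes Traf1 and Traf2. All 10 were found among 55536 named genes. The RNA came from bone-marrow-derived macrophages, phagocytes derived from cultured marrow cells, and the mice were of the strain C57BL/6J, with age and sex not collected. The cells had received lipid A, the membrane-anchoring portion of bacterial lipopolysaccharide, at 100 ng/ml for 12 h, had then been washed and kept without it for 12 h, and had been exposed to 100 ng/ml once more for 25 min. The nucleoplasmic fraction, called nucleus in another label, was depleted of ribosomal RNA and sequenced. The 2 libraries are biological replicates of this 1 condition, replicate 1 started from 500 ng and replicate 2 from 1000 ng of RNA, and both carry the same donor entry. No untreated, once-stimulated or cytoplasmic RNA was analysed here, so the values below are levels after the second exposure and not responses to it, no p-value was computed, and the spread between the libraries may be technical.

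TNF is made as a trimer in the cell membrane, from which the metalloprotease ADAM17 releases the soluble cytokine. Both forms bind TNFR1, which carries a death domain and is present on most cells, and TNFR2, which lacks one and is found mainly on leukocytes and endothelium. The receptors signal through adaptor proteins, among them TRAF2 and its partner TRAF1, to NF-kB and MAP kinases. In macrophages the Tnf gene is transcribed within minutes of Toll-like receptor stimulation, and its mRNA is short-lived because proteins such as tristetraprolin bind AU-rich repeats in the 3′ untranslated region.

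The gene tables held 20196408 expected counts in replicate 1 and 19588980 in replicate 2. A gene was called detected at 10 or more expected counts in both libraries, which 14596 genes reached, 11370 of them protein-coding. Levels are given in TPM, a unit that divides counts by transcript length and library total and so allows genes to be compared. Across detected genes Pearson's r of log2 TPM between the 2 libraries was 0.97, as a description across genes, which are not independent replicates. All 8 macrophage markers were detected, with a median level of 172 ± 45.4 TPM (SD, n = 2) and a summed level of 3317 and 2981 TPM in replicates 1 and 2. None of 6 T cell markers was detected, and their summed level was 0.26 and 0.7 TPM in replicates 1 and 2, with Cd3e and Cd3g at 0 expected counts. A second deposited quantification, laid out as kallisto writes it, gave another T cell marker, Cd3d, 497 and 204 estimated counts in replicates 1 and 2, where the first gave 2 and 1 expected counts. It also gave Cd3g 72 and 22 and Cd8a 149 and 57 estimated counts, so these T cell markers would pass the limit there. Of 6 B cell markers 2 were detected, both under 1 TPM, and all 5 neutrophil markers were at 0 expected counts, although the kallisto-layout table gave Cxcr2 315 and 206 and Mpo 81 and 26 estimated counts in replicates 1 and 2. Of 5 natural killer and innate lymphoid markers only Il7r was detected, at 11.6 and 9.13 TPM in replicates 1 and 2. The kallisto-layout table gave Gata3 50 and 22 and Eomes 60 and 27 estimated counts in replicates 1 and 2. Of 5 dendritic cell markers 3 were detected, with a summed level of the list of 2.82 and 2.46 TPM in replicates 1 and 2, and of 4 mast cell markers 1. By kallisto-layout counts the B cell marker Ms4a1, the dendritic markers Flt3 and Siglech and the mast cell marker Cpa3 would pass as well.

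The 3 ligand genes Ltb, Tnf and Lta lie side by side on chromosome 17, and their upstream sequences are shown because the RNA levels of these close neighbours differed widely. Each line gives the 250 bases before the RefSeq transcription start (build GRCm38.p6), 5′ to 3′ on the strand of the gene. Capitals mark the TATA-box letters TATAAA in Tnf and Lta and a match to the kB consensus of NF-kB in Ltb.
Tnf, chr17:35202008-35202257, minus strand: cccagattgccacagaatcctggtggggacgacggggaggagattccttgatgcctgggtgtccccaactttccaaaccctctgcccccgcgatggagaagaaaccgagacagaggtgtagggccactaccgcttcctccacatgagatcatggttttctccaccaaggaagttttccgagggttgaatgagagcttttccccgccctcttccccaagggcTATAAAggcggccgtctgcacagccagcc
Lta, chr17:35205352-35205601, minus strand: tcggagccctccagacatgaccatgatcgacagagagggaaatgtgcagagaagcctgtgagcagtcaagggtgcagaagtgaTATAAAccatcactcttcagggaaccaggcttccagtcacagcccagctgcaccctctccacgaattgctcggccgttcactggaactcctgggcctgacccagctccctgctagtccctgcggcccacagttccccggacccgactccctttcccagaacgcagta
Ltb, chr17:35194257-35194506, plus strand: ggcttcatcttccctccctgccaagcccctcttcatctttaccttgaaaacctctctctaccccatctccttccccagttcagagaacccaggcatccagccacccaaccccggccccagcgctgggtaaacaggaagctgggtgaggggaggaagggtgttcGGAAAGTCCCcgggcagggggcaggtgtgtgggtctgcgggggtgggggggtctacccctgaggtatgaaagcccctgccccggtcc

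Promoters of 9 of the 10 genes, all but Tnfsf9, were in the RefSeq table. Each reached from 250 bases before to 50 after the start, and 4 patterns were searched on both strands. TATAAA was found in Tnf at positions -29 to -24 relative to the start, and in Lta farther out, at -167 to -162. It occurs in 13.6% of all 32851 promoters in the table. The kB consensus was found in Ltb, on the opposite strand at -87 to -78, and occurs in 8.46% of promoters. The pattern GAAANNGAA, typical of sites for interferon regulatory factors, was found in Tnfrsf1b at -9 to -1 on the opposite strand and occurs in 8.56%. TGANTCA, the AP-1 pattern, occurs in 7.81% of promoters and in none of the 9 windows. No match overlapped another, and a match describes letters and not a bound site. Bases farther upstream, other start sites of a gene and looser forms of the patterns were not searched, so a missing match does not show that a gene lacks such sites. The leading coding transcript Traf1-207, for example, begins downstream of the RefSeq start used for Traf1.

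Tnf stood far above every other ligand gene. Its RNA (ENSMUSG00000024401.14, chr17:35199381-35202007, minus strand) was measured at 441 and 456 TPM in replicates 1 and 2, from 12419 and 14423 expected counts, with a mean of 448 ± 10.9 TPM (SD, n = 2). By mean TPM it ranked 44 among the 22015 annotated protein-coding genes. All of its counts were assigned to the transcript Tnf-201, which has 4 exons, and the other annotated coding transcript, Tnf-202, was listed at 0 in both libraries.

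The stretch of the Tnf 3′ untranslated region with the densest AU-rich repeats is shown because it is the element through which this mRNA is known to be destabilised. It covers bases 437 to 466 of the 764-base region of Tnf-201 on chromosome 17 (GENCODE M21), and capitals mark the pentamer ATTTA, which occurs 5 times in these 30 bases, overlapping in places.
Tnf AU-rich stretch: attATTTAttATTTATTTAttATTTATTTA
The whole region held 8 ATTTA pentamers, or 10.5 per kb, and 5 overlapping copies of the nonamer TTATTTATT. Among 11306 detected protein-coding genes with an annotated 3′ untranslated region, 7.78% held at least 1 such nonamer and 0.955% had at least as many pentamers per kb, with a median of 1.31 per kb. Lta held 3 pentamers and 1 nonamer in 572 bases, and Tnfsf9 2 pentamers in 253 bases, or 7.91 per kb. Tnfsf10 also held 8 pentamers, but in 3998 bases, and no nonamer. Tnfrsf1a and Ltb held neither, and Tnfrsf1b, Adam17, Traf1 and Traf2 held 1 to 3 pentamers and no nonamer.

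The lymphotoxin genes on either side of Tnf were near the limit of detection. Lta encodes lymphotoxin-α, which as a homotrimer binds the same receptors as TNF. It (ENSMUSG00000024402.5, chr17:35203165-35205351, minus strand) had 1 expected count in replicate 1, with an exact 95% Poisson interval of 0.0253 to 5.57, and 10 counts in replicate 2, with an interval of 4.8 to 18.4. These counts correspond to 0.04 and 0.38 TPM in replicates 1 and 2. Ltb encodes lymphotoxin-β, which anchors lymphotoxin-α in a membrane heterotrimer. It (ENSMUSG00000024399.5, chr17:35194439-35196320, plus strand) had 13 counts in replicate 1, with an interval of 6.92 to 22.2, and 4 counts in replicate 2, with an interval of 1.09 to 10.2, corresponding to 0.55 and 0.19 TPM. Neither passed the detection rule, and the library with the higher value was replicate 2 for Lta and replicate 1 for Ltb. The 13 counts of Ltb in replicate 1 were all assigned to the retained-intron transcript Ltb-202 and the 4 in replicate 2 all to the coding transcript Ltb-201, so at this depth the form of Ltb RNA was not settled. In bulk RNA, fewer expressing cells and less RNA per cell cannot be told apart. Poisson and other intervals here cover counting error only.

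The drop in level around Tnf was steep over a short distance. Tnf and Lta are separated by 1157 bases, Ltb and Tnf by 3060 bases, and the 3 genes span 10913 bases. Within 50 kb of the Tnf start, 10 protein-coding genes begin, Tnf included. Lst1, which lies 13568 bases from the Tnf start and encodes a leukocyte transmembrane protein, was measured at 98.6 and 98.7 TPM in replicates 1 and 2. Aif1, the gene of the macrophage protein IBA1, was measured at 84.7 and 138 TPM in replicates 1 and 2. Prrc2a averaged 80.2 ± 1.14 TPM and the RNA helicase gene Ddx39b 114 ± 2.79 TPM (SD, n = 2 each). Nfkbil1 averaged 7.79 ± 1.2 TPM, Atp6v1g2 2.62 ± 0.53 TPM and Gm16181 0.68 ± 0.75 TPM. Tnf was thus the highest gene of the window in both libraries, and Lta and Ltb were the only genes below 1 TPM in both.

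**Figure D1:**
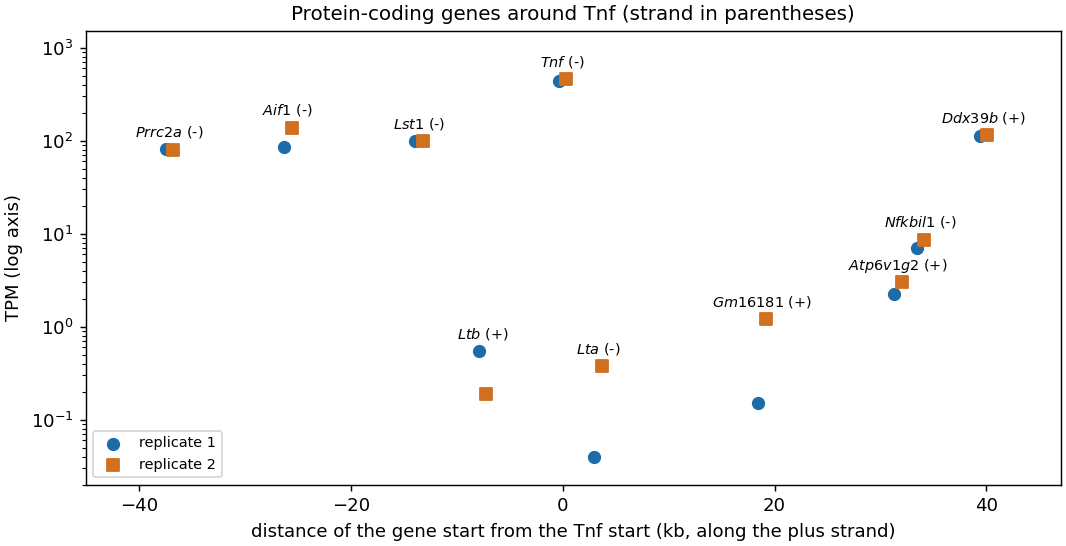
TPM on a log axis of the 10 protein-coding genes that begin within 50 kb of the Tnf start, against the distance of each gene's start from it in kb; circles are replicate 1 and squares replicate 2. Tnf lies at 441 and 456 TPM in replicates 1 and 2, and its neighbours Ltb and Lta lie between 0.04 and 0.55 TPM.

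The remaining ligand genes were both detected, with Tnfsf9 higher in replicate 1 and Tnfsf10 higher in replicate 2. Tnfsf9 encodes the ligand of CD137, a co-stimulatory receptor of T cells. It (ENSMUSG00000035678.8, chr17:57105325-57107757, plus strand) had 64.2 and 37.8 TPM in replicates 1 and 2, a mean of 51 ± 18.7 TPM (SD, n = 2), from 1365 and 907 counts. It shares 618 bases with the noncoding RNA gene Gm11110 on the opposite strand, which had 23 and 28 counts in replicates 1 and 2. Tnfsf10 encodes TRAIL, a ligand of death receptors. It (ENSMUSG00000039304.11, chr3:27317028-27342427, plus strand) had 8.47 and 12.9 TPM in replicates 1 and 2, a mean of 10.7 ± 3.15 TPM, from 803 and 1312 counts. The TPM ratio of Tnfsf9 over Tnfsf10 was accordingly 7.58 in replicate 1 and 2.92 in replicate 2: Tnfsf9 was higher in both libraries, by an amount that was not well fixed. Tnfrsf9 and Tnfrsf10b, which encode receptors of these ligands, had low expected counts in the same RNA. Tnfrsf9, which encodes CD137, had 1 and 11 counts in replicates 1 and 2 and was not detected, and Tnfrsf10b, the death receptor of TRAIL in mice, had 36 and 17 counts in replicates 1 and 2 and averaged 0.44 ± 0.24 TPM. In the kallisto-layout tables Tnfrsf9 had 62 and 33 and Tnfrsf10b 544 and 321 estimated counts in replicates 1 and 2. The low value of Tnfrsf10b thus holds for the expected counts only. Tnfrsf9 would pass the detection limit there, but remained far below its ligand gene Tnfsf9, which had 2362 and 1206 estimated counts in replicates 1 and 2. Ltbr, the receptor of the lymphotoxin heterotrimer, averaged 15.1 ± 2.69 TPM (SD, n = 2).

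Both TNF receptor genes were detected, and Tnfrsf1b was the higher in both libraries. Tnfrsf1b encodes TNFR2 and (ENSMUSG00000028599.10, chr4:145213463-145246870, minus strand) had 219 and 233 TPM in replicates 1 and 2, a mean of 226 ± 10.4 TPM, with 15619 and 18309 counts. Tnfrsf1a encodes TNFR1 and (ENSMUSG00000030341.17, chr6:125349362-125362484, plus strand) had 38.2 and 44.3 TPM in replicates 1 and 2, a mean of 41.3 ± 4.31 TPM (SD, n = 2 each), with 1352 and 1769 counts. The level of Tnfrsf1b was 5.72 times that of Tnfrsf1a in replicate 1 and 5.26 times in replicate 2, a log2 ratio of 2.46 ± 0.08 (SD, n = 2). This ratio of levels was much larger than the spread between the libraries. Tnf in turn exceeded Tnfrsf1b 2.02 times in replicate 1 and 1.96 times in replicate 2, and exceeded Tnfrsf1a 11.5 and 10.3 times. By mean TPM Tnfrsf1b ranked 136 and Tnfrsf1a 1436 among the protein-coding genes. Nearly all expected counts of both receptor genes lay on coding transcripts. Of Tnfrsf1a, 1292 and 1700 counts were assigned to Tnfrsf1a-201, and the retained-intron transcript Tnfrsf1a-205 had 6 and 9 in replicates 1 and 2. Of Tnfrsf1b, 7 counts in replicate 2 were assigned to Tnfrsf1b-202, an annotated target of nonsense-mediated decay, and all others to Tnfrsf1b-201, in whose span introns make up 88.6%. In the kallisto-layout tables, coding transcripts held 94.1% of Tnfrsf1a counts in both libraries, and 81.9% and 81.1% of its TPM in replicates 1 and 2.

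Adam17, the gene of the protease that sheds TNF and also both of its receptors, was detected at nearly equal levels in both libraries. It (ENSMUSG00000052593.16, chr12:21323509-21373632, minus strand) had 62.7 and 55.5 TPM in replicates 1 and 2, a mean of 59.1 ± 5.09 TPM (SD, n = 2), from 4872 and 4453 counts. It shares 311 bases with Iah1 on the opposite strand, which had 146 and 157 counts in replicates 1 and 2, and without a stated strand setting reads from shared bases cannot be told apart, here and for Tnfsf9. Adam10, the gene of a related sheddase, averaged 25.5 ± 5.02 TPM, and Adam17 exceeded it 2.16 times in replicate 1 and 2.53 times in replicate 2. Rhbdf2 encodes iRhom2, the partner that ADAM17 needs to leave the endoplasmic reticulum in macrophages, and averaged 34 ± 4.98 TPM, whereas Rhbdf1, which encodes its relative iRhom1, had 13 and 8 counts in replicates 1 and 2 and was not detected, although the kallisto-layout tables gave it 47 and 17 estimated counts. Furin, the protease that removes the prodomain of ADAM17, averaged 39.8 ± 7.11 TPM, and Pacs2, which encodes a sorting protein of ADAM17, 31.8 ± 3.66 TPM (SD, n = 2 each). Of the 8 genes listed as ADAM17 partners and related sheddase genes, 5 were detected. The undetected ones included Timp1 and Timp3, which encode inhibitors of metalloproteases in general. In the kallisto-layout tables Timp1 had 44 and 22 and Timp3 392 and 149 estimated counts in replicates 1 and 2.

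The adaptor genes showed an unequal pair as well, with Traf1 above Traf2. TRAF2 is a RING-domain protein that brings cIAP ubiquitin ligases to TNF receptors, and TRAF1 is a relative without a RING domain. Traf1 (ENSMUSG00000026875.14, chr2:34941750-34961772, minus strand) had 66.4 and 64.3 TPM in replicates 1 and 2, a mean of 65.3 ± 1.48 TPM, from 2355 and 2628 counts. Traf2 (ENSMUSG00000026942.13, chr2:25517982-25546940, minus strand) had 11.4 and 14.2 TPM in replicates 1 and 2, a mean of 12.8 ± 2.02 TPM (SD, n = 2 each), from 687 and 863 counts. Traf1 was 5.84 times Traf2 in replicate 1 and 4.52 times in replicate 2, so the ranges of the pair did not overlap. These are sums over all transcripts of each gene, and for Traf1 much of the sum was assigned to transcripts not annotated as coding. Coding transcripts held 43.9% and 32.4% of Traf1 TPM in replicates 1 and 2, against 69.6% and 79.5% of Traf2 TPM. By these shares Traf1 exceeded Traf2 by less on coding transcripts alone.

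Retained-intron transcripts, annotated RNAs that keep an intron and are not translated as the full protein, carried most of the Traf1 expected counts. They held 56.2% of them in replicate 1 and 59.5% in replicate 2, a mean of 57.8 ± 2.34% (SD, n = 2). By TPM the share was 49.8 ± 3.53%, and coding transcripts held 38.1 ± 8.1%. In the kallisto-layout tables the retained-intron share of Traf1 was lower, 45.6% of counts in replicate 1, where coding transcripts held 46.6%, and 52.3% in replicate 2, and 29.2% and 38% of TPM. Coding transcripts held 61.6% and 48.5% of kallisto-layout TPM in replicates 1 and 2. By expected counts, the retained-intron transcripts were these. Traf1-208 was the leading one, with 821 and 998 counts in replicates 1 and 2 and 23.5 and 25.6 TPM, and Traf1-206 had 502 and 566 counts. The leading coding transcript by counts, Traf1-207, had 544 counts in replicate 1 and 376 in replicate 2. Counts were divided among overlapping transcripts by estimation: Traf1-201 had 267 and 331 expected counts in replicates 1 and 2, but 0 and 251 in the kallisto-layout tables. The 386-base Traf1-209 had only 41 and 24 counts in replicates 1 and 2 but 12.4 and 5.44 TPM, since a short effective length raises TPM, so the shares are given on both scales. Nuclear RNA can hold RNA not yet spliced, and its part in the counts of retained-intron transcripts, here and below, was not tested.

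By expected counts the retained-intron shares of Traf2 and Adam17 were below that of Traf1. For Traf2 it was 39% of counts in replicate 1 and 29% in replicate 2, a mean of 34 ± 7.1%, and 25.5 ± 7% of TPM (SD, n = 2), with 268 and 250 counts on Traf2-203. In the kallisto-layout tables the Traf2 share was higher, 57.5% of counts in replicate 1 and 50.5% in replicate 2, and 47.3% and 38.3% of TPM, so the order of Traf1 and Traf2 did not hold there. Coding Traf2 RNA was split between Traf2-201, with 365 and 416 counts, and Traf2-202, with 54 and 197 in replicates 1 and 2. For Adam17 the retained-intron share was 11.6 ± 1.07% of counts and 18.7 ± 4.06% of TPM, with 514 and 512 counts in replicates 1 and 2 on Adam17-208, against 4014 and 3619 on the coding Adam17-201. For Tnfrsf1a it was 0.47 ± 0.0335% of counts, but 3.74% in replicate 1 and 2.82% in replicate 2 of kallisto-layout counts. Among 6848 detected protein-coding genes with an annotated retained-intron transcript, the median share of counts was 14.9%, the upper quartile 34.1% and the ninth decile 55.8%. Traf1 thus lay above the ninth decile by counts, but by TPM, where the upper quartile was 41.4% and the ninth decile 58.1%, it lay between them. On the same tables Traf2 lay near the upper quartile by counts and near the median of 25.7% by TPM, and Adam17 lay below both medians. Tnf, Lta, Tnfsf9, Tnfsf10 and Tnfrsf1b have no annotated retained-intron transcript, so retention could not be read for them in these tables.

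The splice sites of the introns kept in these transcripts are shown because they place the retained segment in each gene. Each line gives 20 exon and 20 intron bases of mm10 around one end of the intron on the strand of the gene, with capitals for the first 6 bases or for the last AG of the intron.
Traf1 intron 1 of 6, 5′ site: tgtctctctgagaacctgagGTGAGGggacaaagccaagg
Traf1 intron 1 of 6, 3′ site: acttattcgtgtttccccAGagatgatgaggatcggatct
Traf2 intron 5 of 10, 5′ site: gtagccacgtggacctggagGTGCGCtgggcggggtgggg
Traf2 intron 5 of 10, 3′ site: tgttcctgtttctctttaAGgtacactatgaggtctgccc
Adam17 intron 15 of 18, 5′ site: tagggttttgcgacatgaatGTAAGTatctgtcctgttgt
Adam17 intron 15 of 18, 3′ site: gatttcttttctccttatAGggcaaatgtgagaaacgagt
Introns are numbered in the leading coding transcripts Traf1-207, Traf2-201 and Adam17-201. The Traf1 intron (chr2:34956281-34957958) is 1678 bases long and the Traf2 intron (chr2:25528307-25530286) 1980 bases, and the Adam17 intron (chr12:21329133-21330032) is 900 bases long. The Adam17 5′ site reads GTAAGT, the form best matched to U1 RNA, and the Traf1 and Traf2 sites read GTGAGG and GTGCGC. Traf1-206 and Adam17-204, also annotated as retaining an intron, span no whole intron of these leading transcripts. The tables count reads only on annotated transcripts, so the other introns of these genes were not measured.

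**Figure D2:**
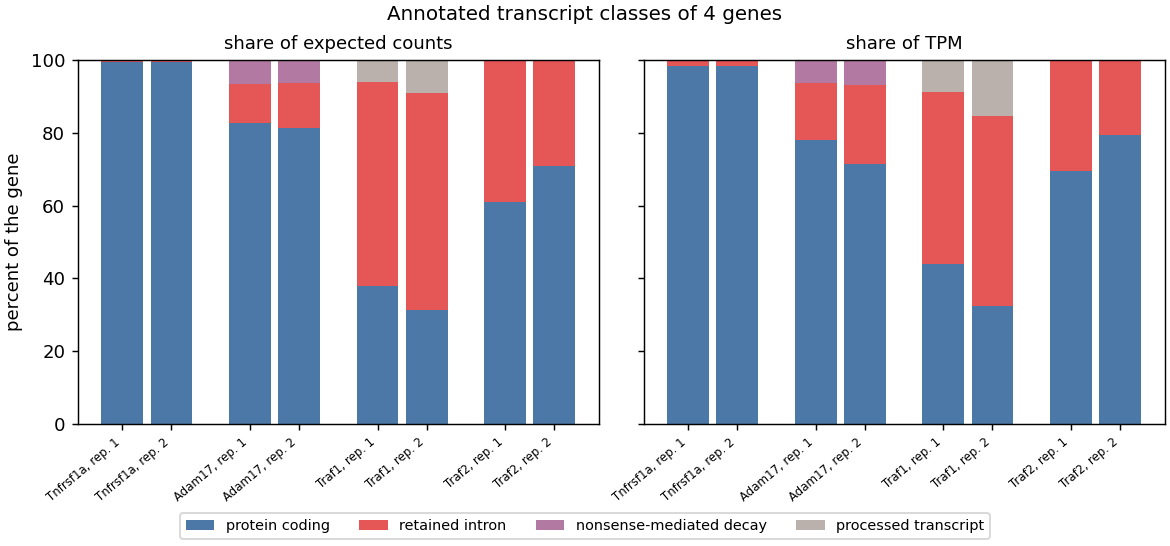
Percent of each gene's expected counts (left panel) and TPM (right panel) on each annotated class of transcript, for Tnfrsf1a, Adam17, Traf1 and Traf2; each bar is 1 replicate, with replicate 1 left of replicate 2. Retained-intron transcripts held 57.8% of Traf1 expected counts on average, against 34% for Traf2, 11.6% for Adam17 and 0.47% for Tnfrsf1a.

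Ordered by mean TPM, the 10 genes ran Tnf, Tnfrsf1b, Traf1, Adam17, Tnfsf9, Tnfrsf1a, Traf2, Tnfsf10, Ltb and Lta. The values of both libraries separated Tnf from Tnfrsf1b, Tnfrsf1b from Traf1, and Traf1 from Adam17, the last by a ratio of means of only 1.11. In kallisto-layout TPM the order of this last pair did not hold. Traf1 had 58.3 and 12.5 and Adam17 54.3 and 12.8 in replicates 1 and 2. The values of the first quantification overlapped between Adam17 and Tnfsf9, between Tnfsf9 and Tnfrsf1a, and between Traf2 and Tnfsf10. Within each library Traf2 still lay above Tnfsf10, at 11.4 against 8.47 TPM in replicate 1 and 14.2 against 12.9 TPM in replicate 2. The order of the pairs with Tnfsf9 changed from library to library. The values of Ltb and Lta overlapped as well. The widest step was the one from Tnfsf10 to Ltb, a ratio of means of 28.9. The summed level of the 10 genes was 911 and 919 TPM in replicates 1 and 2. Tnf made up 48.4% of it in replicate 1 and 49.6% in replicate 2, and Tnf with Tnfrsf1b 72.3% and 75%. The median level of the 10 genes was 50.4 and 41 TPM in replicates 1 and 2, and that of the detected protein-coding genes, from which Lta and Ltb are absent, 9.33 and 7.81 TPM.

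**Figure D3:**
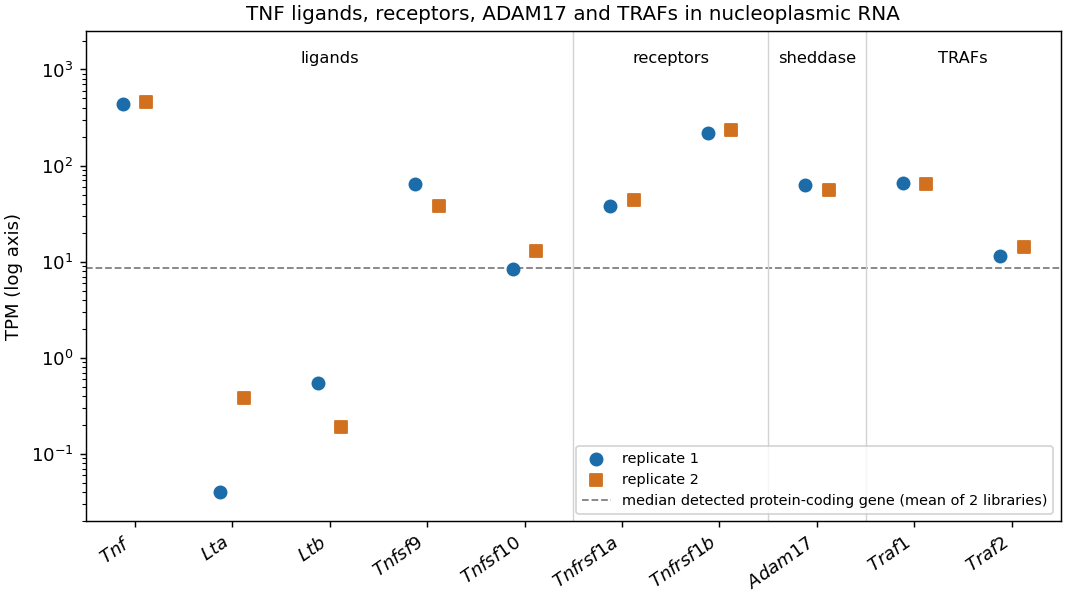
TPM on a log axis of the 10 genes in replicate 1 (circles) and replicate 2 (squares), grouped by role; the dashed line is the median TPM of detected protein-coding genes, averaged over the 2 libraries. Tnf at 441 and 456 TPM and Tnfrsf1b at 219 and 233 TPM in replicates 1 and 2 stand highest, and Lta and Ltb stay below 1 TPM.

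The 8 detected genes were then compared between the libraries on counts scaled by TMM, a normalisation that centres the typical gene. None of the 8 differed more than 2-fold, while 1143 of the 14596 detected genes did, or 7.83%. At that background share a count of 0 among 8 genes is not a result about these genes. Tnfsf10 was farthest apart, with a log2 ratio of replicate 1 over replicate 2 of -0.85 (95% counting interval -0.98 to -0.72), from 38.5 and 69.4 CPM in replicates 1 and 2, counts scaled to a common library size. Tnfsf9 was the single gene higher in replicate 1, at 0.45 (0.32 to 0.57), from 65.4 and 48 CPM. Adam17 was level, at -0.01 (-0.07 to 0.05). For Tnf the log2 ratio was -0.36 (-0.39 to -0.32), for Tnfrsf1b -0.37 (-0.40 to -0.34) and for Tnfrsf1a -0.53 (-0.63 to -0.43). Traf1 had -0.30 and Traf2 -0.47. The 7 genes other than Tnfsf9 were thus lower in replicate 1 or level with replicate 2 on this scale, with a median over the 8 genes of -0.37, where the median of all detected genes was 0.00. On the TPM scale the median of all detected genes was 0.28 and that of the 8 genes -0.07, so relative to the typical gene the 8 lay about equally low, and the log2 TPM ratio was -0.05 for Tnf and 0.05 for Traf1. The replicate number goes with the amount of starting RNA, and the part of either in these differences cannot be told apart.

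**Figure D4:**
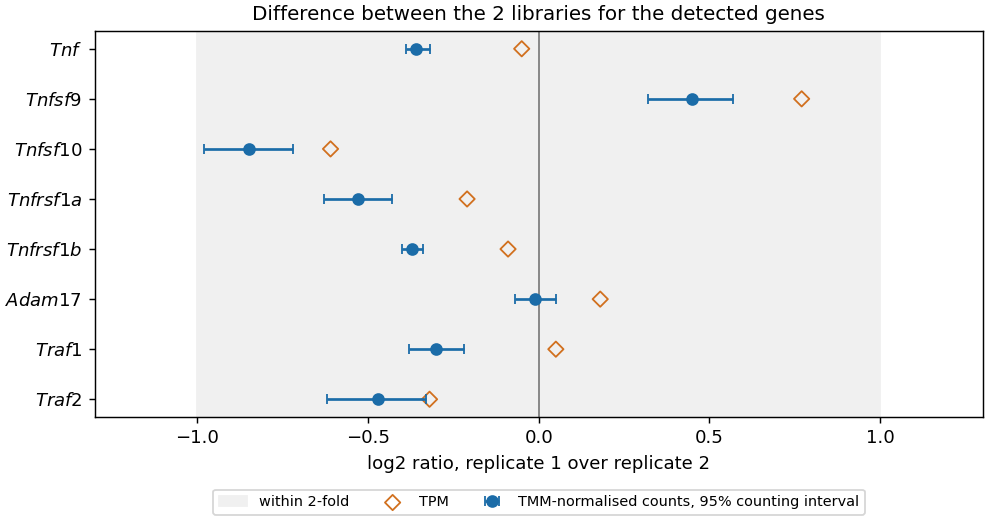
Log2 ratio of replicate 1 over replicate 2 for the 8 detected genes; filled points with bars are TMM-scaled counts with their 95% counting interval and open diamonds are TPM. All lie within the shaded 2-fold range, from -0.85 for Tnfsf10 to 0.45 for Tnfsf9 on the scaled counts.

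The wider TNF superfamily was read from 5 lists with 75 genes, of which 54 were detected. Of 13 other ligand genes 5 were detected, 3 were at 0 in both libraries, and the median level of the list was 0.09 ± 0.0424 TPM. The highest were Tnfsf12, which encodes TWEAK, at 16.9 ± 0.742 TPM, Tnfsf13, which encodes the B cell factor APRIL, at 6.35 ± 0.389 TPM, and Tnfsf15 at 5.4 ± 1.74 TPM. Every ligand gene of this list thus lay below Tnfsf9, but Tnfsf12 lay above Tnfsf10. Of 26 other receptor genes 16 were detected and 7 were at 0. Tnfrsf14, which encodes HVEM, averaged 96.7 ± 4.69 TPM, Tnfrsf11a, which encodes the osteoclast receptor RANK, 36.1 ± 4.89 TPM and Cd40 20.2 ± 7.16 TPM, all below Tnfrsf1b. In TPM Tnfrsf14 lay above Tnfrsf1a, although its 953 and 1609 expected counts in replicates 1 and 2 were fewer. On scaled counts its log2 ratio of replicate 1 over replicate 2 was -0.90, farther apart than its 100 and 93.4 TPM. All 5 other TRAF genes were detected, led by Traf7 at 35.3 ± 14.1 TPM, Traf6 at 10.3 ± 3.17 TPM and Traf3 at 7.96 ± 0.389 TPM (SD, n = 2 each). Traf6 encodes the adaptor that serves Toll-like receptors, and Traf1 stood above every gene of this list, whereas Traf2 stood below Traf7.

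All 23 genes listed under TNFR1 signalling complexes were detected, with a median of 29.1 ± 0.41 TPM (SD, n = 2). The 3 highest were Cflar, Tnfaip3 and Birc3. Cflar, which encodes the caspase-8 inhibitor c-FLIP, averaged 289 ± 25.6 TPM, between Tnf and Tnfrsf1b. Tnfaip3, the gene of the ubiquitin-editing enzyme A20, averaged 199 ± 3.59 TPM, and Birc3, the gene of the ubiquitin ligase cIAP2, 105 ± 0.87 TPM. Tradd, the adaptor that binds the death domain of TNFR1, was among the lower ones at 5.22 ± 2.25 TPM, and Casp8 averaged 43.5 ± 17.7 TPM (SD, n = 2 each). Between the libraries, 3 of the 16 detected receptor genes and 1 of the 23 complex genes differed more than 2-fold on scaled counts, and none of the detected genes in the other lists did; over all detected genes the share was 7.83%, and no list is set apart by these counts. The receptor genes were Tnfrsf8, with a log2 ratio of replicate 1 over replicate 2 of -1.14, and the related neighbours Tnfrsf22 and Tnfrsf23, with 1.06 and 1.11; the complex gene was Tradd, with -1.07.

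**Figure D5:**
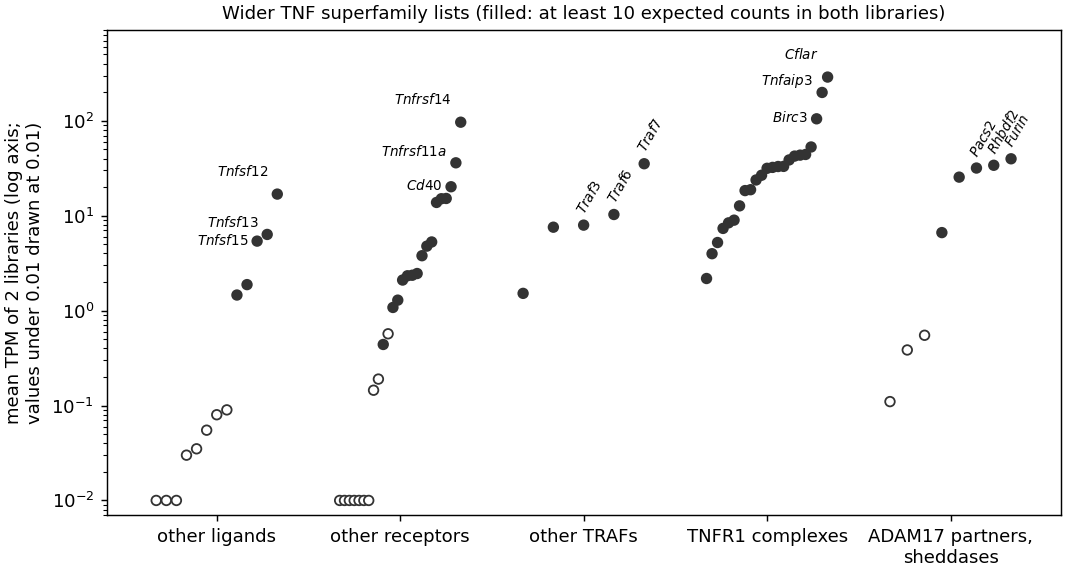
Mean TPM of the 2 libraries on a log axis for each gene of 5 wider TNF superfamily lists, sorted within a list; filled points were detected, open points were not, values under 0.01 are drawn at 0.01, and the 3 highest genes of each list are named. All 23 genes of the TNFR1 complexes are filled, against 5 of 13 other ligand genes.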

How the data were processed

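Per the labels, 2 libraries of ribosomal-RNA-depleted nucleoplasmic RNA formed 1 group. The authors aligned reads to mm10 and deposited expected counts and TPM for GENCODE M21 genes and transcripts, as the file notes say, with posterior mean TPM in a further column, per the file headers. Another deposited table gives each transcript an estimated count and a TPM. Which programs and strand setting were used is not given in the sources used here; tables are named by the layout (RSEM, kallisto) of their columns. Entries without a gene name held 0.282% of expected counts in replicate 1 and 0.064% in replicate 2 and were left out. Total counts were 20196408 and 19588980, so 3 counts, the upper limit at a count of 0, is 1.49e-05% and 1.53e-05% of a library.

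Symbols were mapped to genes through the identifiers in the kallisto-layout table. Expected counts were rounded and scaled with edgeR 4.0.16 (TMM) in R 4.3.3, and the ratio procedure was tested on simulated data. DESeq2 1.42.0 size factors, TPM, posterior mean TPM, the kallisto-layout table, other detection thresholds and leaving out a replicate were alternatives. Other steps used Python 3.11.15 with pandas 2.3.3 and scipy 1.17.1. The intervals of ratios are exact binomial intervals of the counts. Sequences came from RefSeq (GRCm38.p6) and from GENCODE M21 transcripts. With 1 group no test between groups exists. Members and lists were chosen with earlier results of these data known. All 10 genes, the 3 highest of each wider list and the protein-coding neighbours within 50 kb of Tnf are named by rule; receptors of the ligands and relatives of ADAM17 were named for their known roles after their values were seen, as were Tradd, Casp8, Timp1, Timp3 and the genes past 2-fold.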

Additional observations from a re-analysis of the deposited data

How the results depend on the processing

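The count of 8 detected genes held with a limit of 1 TPM, of 50 expected counts, and in the kallisto-layout table, and the wider lists gave 51 detected genes at 1 TPM and 61 in the kallisto-layout table, against 54. None of the 8 passed 2-fold between the libraries with DESeq2 size factors, TPM, posterior mean TPM or the kallisto-layout TPM rescaled to nuclear protein-coding genes. Unscaled kallisto-layout TPM put all 8 past it, as it did 98.3% of all genes, whose median log2 ratio there was 2.28, and without a filter on low counts 2 passed, Lta and Ltb. The median log2 ratio of the 8 genes was -0.07 on TPM, -0.06 on posterior mean TPM and 1.82 on unscaled kallisto-layout TPM. Relative to all genes on each scale it stayed between -0.46 and -0.35. Levels in TPM depended on the table and scale. The mean level of Tnf was 448 TPM in the first quantification, from 441 and 456 TPM in replicates 1 and 2. In the kallisto-layout table it was 163 TPM, from 253 and 73 TPM, so this mean describes neither library. Rescaled to nuclear protein-coding genes, the Tnf level was 1582 in the RSEM-layout and 1246 in the kallisto-layout table. The log2 ratio of Tnf over Tnfrsf1b was 1.02 in the kallisto-layout table, rescaled or not, and that of Tnfrsf1b over Tnfrsf1a 2.23. Leaving out a replicate gave 0.97 to 1.01 for Tnf over Tnfrsf1b and 2.40 to 2.52 for Tnfrsf1b over Tnfrsf1a. In the kallisto-layout table the coding share of TPM moved to 46.5% for Adam17, against 74.7%, and to 57.2% for Traf2, against 74.5%. It also moved to 55.1% for Traf1, against 38.1%, and to 81.5% for Tnfrsf1a, against 98.5%. The coding share of Ltb was 100% without replicate 1 and 0% without replicate 2. No paired analysis was possible because there is only 1 group. Counts of 1 to 13 limit Lta and Ltb.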

Other observations

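Within the wider TNF superfamily lists, 3 genes had at least 100 estimated counts in both libraries of the kallisto-layout table and at least 5 times their expected counts. Tnfrsf10b had 544 and 321 estimated counts in replicates 1 and 2, where the expected counts were 36 and 17. Tnfrsf13c, the gene of the B cell receptor of BAFF, had 257 and 114 estimated counts in replicates 1 and 2 and was at 0 expected counts in both libraries. Timp3, the gene of an ADAM17 inhibitor, had 392 and 149 estimated counts in replicates 1 and 2 and 15 and 2 expected counts. Of 10248 protein-coding genes with at least 100 estimated counts in both libraries, 883 met the same rule, or 8.62%. Among the 10 genes of the TNF circuit, the ratio of estimated to expected counts of the detected ones lay between 1.47 and 1.8 in replicate 1 and between 1.16 and 1.39 in replicate 2, and the median of all genes was 1.74 and 1.33.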
